A study of Mus musculus with 15 samples.

Results

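Chloride and sodium gradients across the membrane of brain cells are kept by a small set of transporters, and 4 of their genes are described here in the mouse prefrontal cortex (PFC). They were chosen by symbol, as 4 of the 26145 genes in the deposited count matrices: Slc12a2, Slc12a5, Atp1b1 and Atp1b2. Slc12a2 encodes NKCC1, a cotransporter that carries sodium, potassium and chloride into the cell. Slc12a5 encodes KCC2, the neuronal potassium-chloride cotransporter that carries chloride out. The balance of the pair sets the chloride gradient, and with it whether GABA, which opens a chloride channel, lowers or raises the membrane potential; the shift from uptake to extrusion is known as a step of early postnatal maturation of neurons. Atp1b1 and Atp1b2 encode beta subunits of the sodium pump, the ATPase that supplies the sodium and potassium gradients on which both cotransporters run. A beta subunit is needed for the catalytic alpha subunit to fold and reach the surface. Atp1b2, also called the adhesion molecule on glia, is known from astrocytes, and Atp1b1 from neurons.

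The series is droplet single-cell RNA-seq of 15 libraries from male C57BL/6N mice. Per the study's methods, each was made from tissue pooled from 2 animals. The 12 adult libraries (P60, 8 to 10 weeks) came from mice trained to press a lever for intravenous self-administration (IVSA) of cocaine or of saline, taken in the maintenance phase, after 48 h of withdrawal or after 15 days of withdrawal, with 2 libraries for each of the 6 groups. The 3 younger libraries (P21, 3 weeks) came from mice without IVSA, so the saline controls share the food training, the jugular catheter and the saline self-administration that the P21 mice lack. The source and titles of all libraries name the PFC while their tissue tag names NAc. The study's methods give 4 mice at P21, which does not make 3 libraries of 2 mice, so the P21 libraries may share animals. The age tests took them as independent. The deposited table of cells holds 24822 P60 and 10538 P21 cells, 1055 to 4439 per library, each with a cluster from the authors, and its P21 count is not the one stated in the study's text. The cluster names fall into 8 classes, namely excitatory and inhibitory neurons, astrocytes, oligodendrocyte precursors (OPC), newly formed oligodendrocytes (NF oligo), oligodendrocytes (oligo), microglia and endothelial cells (endo). The P21 cells took their names from their correlation with P60 clusters. Age and library batch cannot be told apart, since no library holds both ages.

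The levels are CPM, UMIs (transcript molecules) scaled to a fixed library total, summed over the cells of a class in a library, so that the library and not the cell is the replicate. Libraries held 8375172 to 42892922 UMIs and median UMIs per cell ran from 3426 to 11334.5. The 35360 cells carried 34602 distinct barcodes, of which 747 occurred in more than 1 library, with at most 27 shared by any pair. Most class labels went with their markers. In P60 saline libraries, the summed level of 3 inhibitory markers (Gad1, Gad2 and Slc32a1) was 2969.7 to 4110.4 CPM in inhibitory neurons and 0.362 to 4.46 CPM in excitatory neurons, which held 1928.7 to 2539.2 CPM of 4 excitatory markers, and 4 astrocyte markers summed to 14164 to 23283 CPM in astrocytes. The endo class went against its label in part: beside 3879.3 to 5287.1 CPM of 3 endothelial markers it held 5014.1 to 7297.8 CPM of the mural markers Pdgfrb, Rgs5 and Vtn, so it is called by its label here and was not taken as endothelium alone. OPC held 1032.3 to 1342 CPM of the astrocyte markers beside 724.05 to 1549.2 CPM of the OPC markers Pdgfra and Cspg4 in P60 saline libraries, and in the 1 P21 library with enough cells 1557.7 CPM of astrocyte markers beside 877.75 CPM of OPC markers, so their label too was not taken as free of other cells. NF oligo held 179.19 to 1409.7 CPM of the mature oligodendrocyte markers beside 2402.6 to 3041.8 CPM of its own markers Bmp4, Enpp6 and Tcf7l2 in P60 saline libraries. At P21 it held 1833.9 to 3881 CPM of the mature markers beside 2131.2 to 2636.6 CPM of its own, so this class was not taken as apart from mature oligodendrocytes. Markers of other classes were detected in every class, apart from the choroid plexus and ependyma list, which was at 0 in P60 saline microglia and in P21 OPC, and the mature oligodendrocyte list, which was at 0 in P21 OPC.

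In the mm9 (NCBIM37) annotation, the build of the files, Slc12a5 (ENSMUSG00000017740) lies on chromosome 2 from 164786316 to 164825228 on the plus strand with 7 transcripts, overlaps the same-strand gene Gm11459 and ends 629 bases before the next gene. Atp1b1 (ENSMUSG00000026576) lies on chromosome 1 from 166367398 to 166388486 on the minus strand. Atp1b2 (ENSMUSG00000041329) lies on chromosome 11 from 69413238 to 69419444 on the minus strand. The promoters of the 2 neuron-enriched members follow, from 250 bases before to 50 bases after the start, read from the RefSeq promoter table (GRCm38.p6, another build than that of the counts); the other 2 members had no entry. They are shown because these 2 genes are the members that rank highest in neurons, and capitals mark matches, on either strand, to the letters GGGCGG of the box rich in guanine and cytosine (GC box), to the letters TATATA of a box bound by the general transcription machinery, to the letters CACGTG of the E-box, or to the letters TGACTCA of the AP-1 motif.
Slc12a5, start 1, chr2:164960596-164960895, plus strand: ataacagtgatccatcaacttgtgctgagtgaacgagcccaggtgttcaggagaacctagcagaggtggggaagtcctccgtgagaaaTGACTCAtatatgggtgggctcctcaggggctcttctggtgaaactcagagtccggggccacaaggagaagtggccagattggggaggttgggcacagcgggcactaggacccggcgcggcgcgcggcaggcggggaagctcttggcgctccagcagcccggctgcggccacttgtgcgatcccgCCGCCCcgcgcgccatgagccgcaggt
Slc12a5, start 2, chr2:164967738-164968037, plus strand: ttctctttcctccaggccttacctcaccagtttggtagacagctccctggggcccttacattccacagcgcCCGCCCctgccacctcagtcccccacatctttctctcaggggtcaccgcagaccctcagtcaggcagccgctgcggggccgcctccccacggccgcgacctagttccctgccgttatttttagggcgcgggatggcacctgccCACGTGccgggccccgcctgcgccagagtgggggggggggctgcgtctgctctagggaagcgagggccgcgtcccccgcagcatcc
Atp1b1, chr1:164458306-164458605, minus strand: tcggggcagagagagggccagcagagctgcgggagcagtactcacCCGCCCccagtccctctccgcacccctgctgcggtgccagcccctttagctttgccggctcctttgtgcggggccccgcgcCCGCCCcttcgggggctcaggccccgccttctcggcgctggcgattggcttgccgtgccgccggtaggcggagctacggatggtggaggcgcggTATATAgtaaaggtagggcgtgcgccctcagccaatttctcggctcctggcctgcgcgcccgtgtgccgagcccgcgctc
All 3 windows hold at least 1 GC box, as do 35.7% of the 32851 promoters in the table. The first Slc12a5 window also holds the AP-1 motif (5.2% of promoters), the second the E-box (7.15%) and the Atp1b1 window the TATATA motif (5.67%). The windows are 63.7%, 68.3% and 71% G and C against a median of 52.7% over all promoters. A match to these letters is a description of the window. Counts from the 3′ end of transcripts cannot separate the starts of Slc12a5, and all values below are for the gene as a whole.

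The 4 genes fell into different classes of cells. Slc12a2 (ENSMUSG00000024597, chromosome 18 from 58038332 to 58106475, plus strand) was led by oligodendrocytes. Over all P60 libraries, it was highest in oligodendrocytes, at 273.5 ± 32.0 CPM (SD, n = 12 libraries), followed by NF oligo at 113.5 ± 89.9 CPM (n = 11), endo at 74.4 ± 18.8, OPC at 41.9 ± 16.9 and microglia at 37.5 ± 18.3. Oligodendrocytes exceeded NF oligo in 10 of 11 libraries that held both, while NF oligo exceeded endo in 7 of 11 and OPC exceeded microglia in 5 of 11, so these neighbours did not separate beyond their spread. Neurons and astrocytes lay far lower, with inhibitory neurons at 11.05 ± 4.29, excitatory neurons at 8.78 ± 1.56 and astrocytes at 3.54 ± 3.25 CPM. In the P60 saline libraries alone, NF oligo held 172.3 ± 99.4 CPM (n = 5) and endo 75.0 ± 18.4 CPM (n = 6). At P21 the head of the order was alike, with 379.6 ± 55.4 CPM in oligodendrocytes (n = 3) and 220.5 ± 39.6 CPM in NF oligo, each above the next class in 3 of 3 libraries. NF oligo also held the mature oligodendrocyte markers given above, more at P21 than in P60 saline libraries, and their part in its Slc12a2 level was not tested.

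Slc12a5 was the neuronal member. P60 excitatory neurons held 151.4 ± 15.1 CPM and inhibitory neurons 149.4 ± 23.6 CPM (n = 12), and the excitatory level was the higher one in only 5 of 12 libraries, so the neuron classes did not separate. Inhibitory neurons exceeded OPC, the next class at 25.3 ± 34.0 CPM, in 11 of 11 libraries. Microglia, astrocytes, oligodendrocytes, endo and NF oligo held 2.88 to 25.2 CPM on average, with SDs about as large as the means. At P21 inhibitory neurons held 179.0 ± 17.9 and excitatory neurons 176.3 ± 27.7 CPM (n = 3).

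Atp1b1 was also neuronal, but the neuron classes differed. P60 inhibitory neurons held 946.7 ± 112.3 CPM and excitatory neurons 562.6 ± 58.5 CPM, in that order in 12 of 12 libraries, and at P21 the means were 1448.2 ± 39.4 and 754.5 ± 33.3 CPM, in that order in 3 of 3. Astrocytes followed at 153.4 ± 79.0 CPM, below excitatory neurons in 11 of 11 P60 libraries, and the remaining classes had means of 35.8 to 127.8 CPM.

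Atp1b2 had the reverse preference. Its P60 level was 789.0 ± 145.4 CPM in astrocytes (n = 11), above OPC at 156.1 ± 30.2 CPM in 11 of 11 libraries. OPC, endo (140.9 ± 15.6 CPM) and inhibitory neurons (138.3 ± 31.2 CPM) were close, in that order in 8 of 11 and 6 of 12 libraries. Inhibitory neurons exceeded excitatory neurons, at 56.7 ± 11.8 CPM, in 12 of 12, and NF oligo, oligodendrocytes and microglia held 13.6 to 16.01 CPM. P21 astrocytes held 852.0 ± 265.3 CPM (n = 3).

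**Figure D1:**
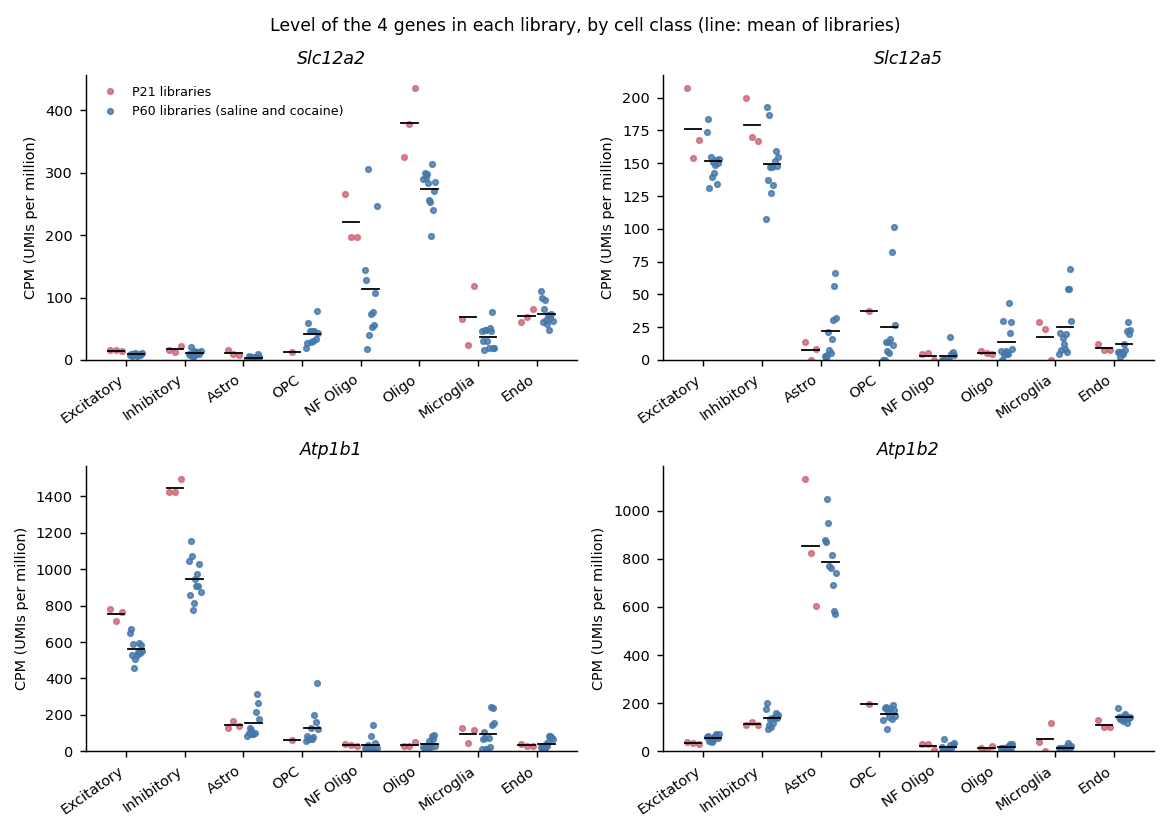
Level of each gene in CPM (vertical axis) in each of the 8 cell classes (horizontal axis), with 1 point per library of at least 10 cells, P21 in pink and all P60 libraries, saline and cocaine, in blue, and a line at the mean. Slc12a2 peaks in oligodendrocytes (273.5 CPM at P60), Slc12a5 and Atp1b1 in neurons, and Atp1b2 in astrocytes (789.0 CPM at P60).

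Free RNA and doublets give UMIs in cells that do not make a transcript, so the shares of cells with a UMI were taken after thinning each cell to 2000 UMIs and set beside a class where the gene was low. Slc12a2 was seen in 40.6% of oligodendrocytes in P60 saline libraries (56.5% before thinning, median depth 3289.5 UMIs), in 2.07% of excitatory neurons (10.9% before thinning, median depth 12507) and in 1.13% of astrocytes (2.26% before thinning, median depth 3271). Slc12a5 was seen in 26.4% of excitatory and 28.2% of inhibitory neurons (78.7% and 63.4% before thinning) against 2.06% of endo cells (4.80% before thinning, median depth 3892). Atp1b1 was seen in 65.4% and 77.6% of these neurons (98.8% and 97.0% before thinning) against 5.91% of oligodendrocytes (9.85%), and Atp1b2 in 75.9% of astrocytes (89.2%), 23.6% of inhibitory (62.2%) and 9.93% of excitatory neurons (42.5%) against 2.12% of microglia (2.67%, median depth 2436).

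A ratio to the markers of the richest class sets a gene beside that class's RNA. Atp1b2 had 0.0435 UMIs per UMI of the 4 astrocyte markers in P60 astrocytes, and 0.0416 in microglia, 0.0515 in oligodendrocytes and 0.05 in NF oligo in pooled counts. By library the ratio ran from 0.0327 to 0.0567 in astrocytes, from 0 to 0.0824 in microglia, from 0.0213 to 0.138 in oligodendrocytes and from 0 to 0.214 in NF oligo, the last on 34 Atp1b2 UMIs, so it is only loosely set in these 3 classes. At P21 it was 0.0623 in astrocytes and 0.106 in NF oligo. In OPC the P60 ratio was 0.125. In excitatory and inhibitory neurons and endo the ratio was 0.528, 0.478 and 0.894, far above that in astrocytes. Slc12a2 had 0.0259 UMIs per UMI of the mature oligodendrocyte markers Mog, Aspa and Mobp in oligodendrocytes and 0.408 in excitatory neurons. Outside neurons at P60, Slc12a5 came at 0.0266 to 0.0705 UMIs per UMI of the synaptic gene Snap25 in pooled counts, against 0.0352 in excitatory and 0.0506 in inhibitory neurons, with the highest value in endo. Atp1b1 came at 0.189 to 0.299, between 0.133 in excitatory and 0.322 in inhibitory neurons, but by library its ratio in P60 astrocytes had a median of 0.390 and ran from 0.206 to 2.64, where the neuron medians were 0.133 and 0.326. At P21 the pooled Atp1b1 ratio in astrocytes was 0.831 against 0.254 in excitatory and 0.578 in inhibitory neurons. The P21 Slc12a5 ratio was 0.108 in endo (0.106 to 0.112 by library) against 0.0615 and 0.0722 in these neurons. In pooled counts it also lay above both in astrocytes (0.0743), microglia (0.0930) and OPC (0.214), from 11, 12 and 3 Slc12a5 UMIs. By library it ran from 0 to 0.1 in astrocytes and from 0 to 0.2 in microglia, so it is only loosely set there.

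Within classes the 4 genes varied to very different degrees over the authors' P60 clusters. The clusters were made from these same cells, so their differences are given as a description. Across the 26 excitatory clusters, Slc12a5 ran from 75.2 ± 16.2 CPM in Exc_19 to 227.2 ± 43.4 in Exc_23, a 3.02-fold range around a median of 145.5, and Atp1b1 from 410.2 ± 44.1 in Exc_17 to 1182.7 ± 385.4 in Exc_26, 2.88-fold, with the next cluster, Exc_13, at 689.6 ± 89.5. Atp1b2 covered a far wider range of 15.3-fold, from 8.61 ± 6.67 CPM in Exc_13 to 131.6 ± 26.8 in Exc_23, while its range was 1.70-fold among inhibitory and 1.29-fold among astrocyte clusters (678.0 to 871.9 CPM). Slc12a2 stayed between 4.01 and 13.7 CPM in all excitatory clusters. At P21 Atp1b2 again spread the most over excitatory clusters, from 6.15 ± 3.596 CPM in Exc_2 to 103.5 ± 31.5 in Exc_10, a 16.8-fold range. Among 9 inhibitory clusters at P21 it ran from 47.7 ± 13.4 CPM in Inhib_6 to 226.8 ± 26.7 in Inhib_11, 4.76-fold. Neither of these clusters was among the 8 inhibitory clusters of the P60 range, so the ranges at the 2 ages cover different clusters.

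Atp1b2 in excitatory clusters followed Rorb, the gene of a nuclear receptor known from neurons of the middle cortical layers. Over the 26 clusters, on log2(pooled CPM + 1), Pearson's r was 0.892 at P60 and 0.934 at P21, and Spearman's rho was 0.893 and 0.891. At P21 the clusters fell into a group low in both genes and a group high in both. With Foxp2, known from deep-layer neurons, r was -0.52 and -0.21, and rho -0.18 and -0.086. Slc12a5 went with Cux2, known from upper-layer neurons, less closely, at r of 0.59 at P60 and 0.68 at P21 (rho 0.53 and 0.62), and with Atp1b1 at 0.33 and 0.28 (rho 0.27 and 0.15). These 3 genes were picked after their values were seen, and the clusters share libraries, so the coefficients describe these clusters and carry no test.

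Slc12a2 and Atp1b2 also varied together inside the endo class. Over its 13 P60 clusters, Slc12a2 ran from 25.0 ± 16.6 CPM in Endo_7 to 135.6 ± 44.001 in Endo_2, 5.43-fold, and Atp1b2 from 22.4 ± 19.4 to 280.7 ± 53.2 CPM in the same pair of clusters, 12.5-fold. Endo_7 held 1118.6 CPM of the mural gene Rgs5 and 2987.1 CPM of the endothelial tight junction gene Cldn5, and Endo_2 held 5075.3 CPM of Rgs5 with 934.5 CPM of Acta2, the actin of smooth muscle. Across the 13 clusters r with Rgs5 was 0.938 for Slc12a2 and 0.959 for Atp1b2, and that of Slc12a2 with Cldn5 was -0.39. Both genes were thus higher in the endo clusters that held more of the mural gene. Rgs5, Cldn5 and Acta2 were picked after their values were seen, too.

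In the oligodendrocyte lineage, Slc12a2 ran from 206.0 ± 75.6 CPM in Oligo_13 to 416.9 ± 119.3 in Oligo_1, 2.02-fold, among the 11 oligo clusters with enough cells in several libraries. NF Oligo_1 held 355.4 CPM in its pooled cells, against 14.7 to 84.6 CPM in the other NF oligo clusters. That cluster also held 2960.6 CPM of the myelin gene Mobp, where the others held 9.4 to 224 CPM.

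**Figure D2:**
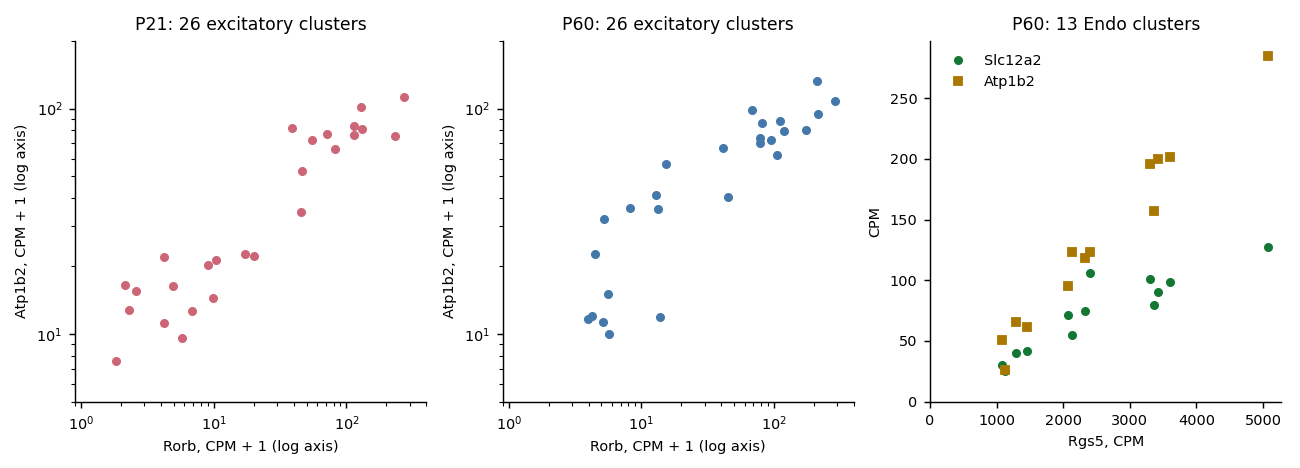
Left and middle, Atp1b2 against Rorb in the 26 excitatory clusters at P21 and at P60, both as CPM + 1 on log axes; right, Slc12a2 and Atp1b2 against Rgs5 in CPM in the 13 P60 endo clusters, 1 point per cluster. Atp1b2 climbs with Rorb at both ages (Pearson's r 0.934 and 0.892), and both genes climb with Rgs5 in the endo class (0.938 and 0.959).

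The genes whose level was most like each member's were found over the 91 P60 clusters with at least 10 cells in a library, by Pearson's r of log2(mean CPM + 1), among 6857 genes of at least 20 CPM on average. Atp1b1 was followed most closely, by Snhg11 (0.934), Rian (0.923) and Prkar1b (0.922), and Slc12a5 by Stk32c (0.905), Ppm1e (0.896) and Nsf (0.896). Slc12a2 had less close neighbours in Rap1a (0.792), Litaf (0.788) and Tmem63a (0.782), as did Atp1b2 in Tmem47 (0.782), Sdc2 (0.777) and Ccnd2 (0.772). Between members, r was 0.848 for Slc12a5 with Atp1b1, 0.368 for Atp1b1 with Atp1b2, -0.386 for Slc12a2 with Atp1b2 and -0.555 for Slc12a2 with Atp1b1. Clusters of a class share libraries and most of their expression, and the coefficients carry no test.

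The study compared P21 with P60 to find what changes over adolescence. Here the 3 P21 libraries were set against the 6 P60 saline libraries within each class by edgeR's quasi-likelihood test on all genes, with Benjamini-Hochberg adjustment within the class and a call at an adjusted p under 0.05. Of 28 pairs of a member and a class, 20 had counts enough to be tested and 5 were called, where 19.1% of all gene tests in these classes were, from 0.726% in microglia to 40.4% in excitatory neurons. The count is thus near that over all genes. OPC were not tested, since P21 libraries held 28, 7 and 6 of them. Excitatory neurons held less Slc12a2 and Atp1b1 and more Atp1b2 at P60, inhibitory neurons held less Atp1b1, and oligodendrocytes held less Slc12a2. Slc12a5 had counts enough to be tested in only 3 of 7 classes and was called in none of them. With the authors' cell type column in place of the class in the cluster name, which moves 459 P21 and 33 P60 cells, all 5 calls were kept and 6 were added, which makes 11 of 26, where 22.8% of all gene tests were called. With that column the share over all genes was 43.3% in microglia in place of 0.726%, 7.61% in astrocytes in place of 1.1% and 6.06% in NF oligo in place of 1.94%. It was 38.9% in excitatory and 19.3% in inhibitory neurons, 20.5% in OPC, 18.2% in oligodendrocytes and 17.4% in endo. Among the added calls were Slc12a5 in microglia, Slc12a2 in astrocytes and Atp1b1 in astrocytes, NF oligo and microglia.

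In excitatory neurons, where 3 of 4 members were called and 40.4% of all 13249 genes tested were, Atp1b2 read 37.9, 33.9 and 30.2 CPM at P21 against a lowest, median and highest level of 37.4, 56.9 and 73.2 CPM in the P60 saline libraries. The groups overlapped by 1 library, saline library 5, at 37.4 CPM. Atp1b2 was 1.70-fold higher at P60 (log2 change 0.76, SE 0.18, adjusted p = 0.00503). Atp1b1 read 782.8, 717.9 and 762.9 CPM at P21 against 459.2, 541.5 and 669.9 CPM (lowest, median and highest), with no overlap. It was lower at P60 (log2 change -0.38, SE 0.097, adjusted p = 0.0070). The 2 beta subunits of the pump thus moved in opposite directions, and the ratio of Atp1b1 to Atp1b2 UMIs was 20.6 to 25.2 in P21 and 7.55 to 12.3 in P60 saline libraries.

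Slc12a2 read 15.2, 15.3 and 13.9 CPM in P21 excitatory neurons against 6.56, 8.99 and 10.7 CPM (lowest, median and highest) at P60, with no overlap, and was 1.65-fold lower at P60 (log2 change -0.72, SE 0.14, adjusted p = 0.00134). These are low levels. Markers of other cells moved in the same direction: in excitatory neurons the summed mature oligodendrocyte markers were at 23.1 to 77.9 CPM at P21 and 11.5 to 27.6 at P60, and the endothelial markers at 18.0 to 54.0 and 2.01 to 8.54 CPM, with all their members detected. Slc12a2 had 0.280 UMIs per mature oligodendrocyte marker UMI in P21 excitatory neurons against 0.0231 in P21 oligodendrocytes, and the part of RNA from other classes in the change was not tested. The astrocyte markers, which bear on Atp1b2, summed to 39.5 to 95.6 CPM at P21 and 62.3 to 141.9 at P60, and among them Aldoc was called higher (log2 change 1.15) while the other 3 were not called. The ratio of Atp1b2 to the astrocyte markers in excitatory neurons was 0.507 at P21 and 0.528 over all P60 libraries, against 0.0623 and 0.0435 in astrocytes.

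Slc12a5, the extruder, read 207.3, 154.0 and 167.5 CPM in P21 excitatory neurons against 131.0, 146.4 and 183.8 CPM (lowest, median and highest) at P60. The groups overlapped. The log2 change of -0.17 (SE 0.11) was not called (adjusted p = 0.218), whereas Snap25 was called higher in these neurons (log2 change 0.65, adjusted p = 5.55e-04). The ratio of Slc12a5 to Slc12a2 UMIs was 10.1 to 13.6 at P21 and 14.3 to 21.8 at P60.

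In inhibitory neurons 19% of all genes tested were called. Atp1b1 read 1425.1, 1425.9 and 1493.8 CPM at P21 against 776.2, 909.6 and 1157.0 CPM (lowest, median and highest) at P60, with no overlap. It was 1.55-fold lower at P60 (log2 change -0.63, SE 0.12, adjusted p = 0.0017). Atp1b2 read 109.6, 120.0 and 108.7 CPM against 92.7, 138.9 and 200.3 CPM (lowest, median and highest), with overlap. It was not called (log2 change 0.30, SE 0.15, adjusted p = 0.169). Nor were Slc12a2 (log2 change -0.75, SE 0.31, adjusted p = 0.103) and Slc12a5 (-0.25, SE 0.13, adjusted p = 0.172).

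Whether the age effect differed between classes was tested with the library as a block. For Atp1b2 the change in inhibitory neurons was lower than that in excitatory neurons by 0.49 on the log2 scale (SE 0.13, adjusted p = 0.00915), where 10.9% of all genes differed, and the call was lost without P21 library 2 or 3 (adjusted p = 0.0635 and 0.0725). For Atp1b1 the difference of -0.26 (SE 0.093) was not called (adjusted p = 0.0817), though it was called without saline library 2 or 3 (adjusted p = 0.0337 and 0.00367). Neither cotransporter differed by the test, at -0.05 for Slc12a2 and -0.08 for Slc12a5. Between astrocytes and excitatory neurons, where 0.205% of genes were called, Atp1b2 differed by -0.82 (SE 0.29) and was not called (adjusted p = 0.439).

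Slc12a2 in oligodendrocytes read 324.9, 378.3 and 435.7 CPM at P21 against 253.6, 284.6 and 299.1 CPM (lowest, median and highest) at P60, with no overlap. It was 1.42-fold lower at P60 (log2 change -0.50, SE 0.13, adjusted p = 0.00998), in a class where 20.3% of genes tested were called. Without P21 library 3 the call was lost (adjusted p = 0.0830). The mature oligodendrocyte markers moved in both directions in this class, with Mog and Mobp called lower (log2 changes -0.80 and -0.77) and Aspa called higher (0.73). Their summed level was 14610 to 17596 CPM at P21 and 9525.8 to 11444 CPM at P60, and its part in the Slc12a2 result was not tested.

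The remaining classes gave no call for a member. In astrocytes, where 1.1% of genes were called, Atp1b2 read 1130.5, 823.3 and 602.1 CPM at P21 and 570.2 to 948.9 CPM in the 5 P60 saline libraries with 10 or more astrocytes, and the log2 change of -0.16 (SE 0.24, adjusted p = 0.840) turned to 0.19 without P21 library 1. In endo, where 16.5% were called, Atp1b2 read 129.6, 100.7 and 101.7 CPM against 132.8 to 147.6 CPM, which did not overlap but was not called (log2 change 0.18, SE 0.11, adjusted p = 0.312). The summed mural markers in endo were at 3913.4 to 4798.5 CPM at P21 and 5014.1 to 7297.8 CPM in P60 saline libraries, and their part in the Atp1b2 values was not tested. In NF oligo (1.94% of genes called) and microglia (0.726%), Slc12a2 had log2 changes of -0.47 (SE 0.35) and -1.17 (SE 0.50), neither called (adjusted p = 0.572 and 0.395).

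**Figure D3:**
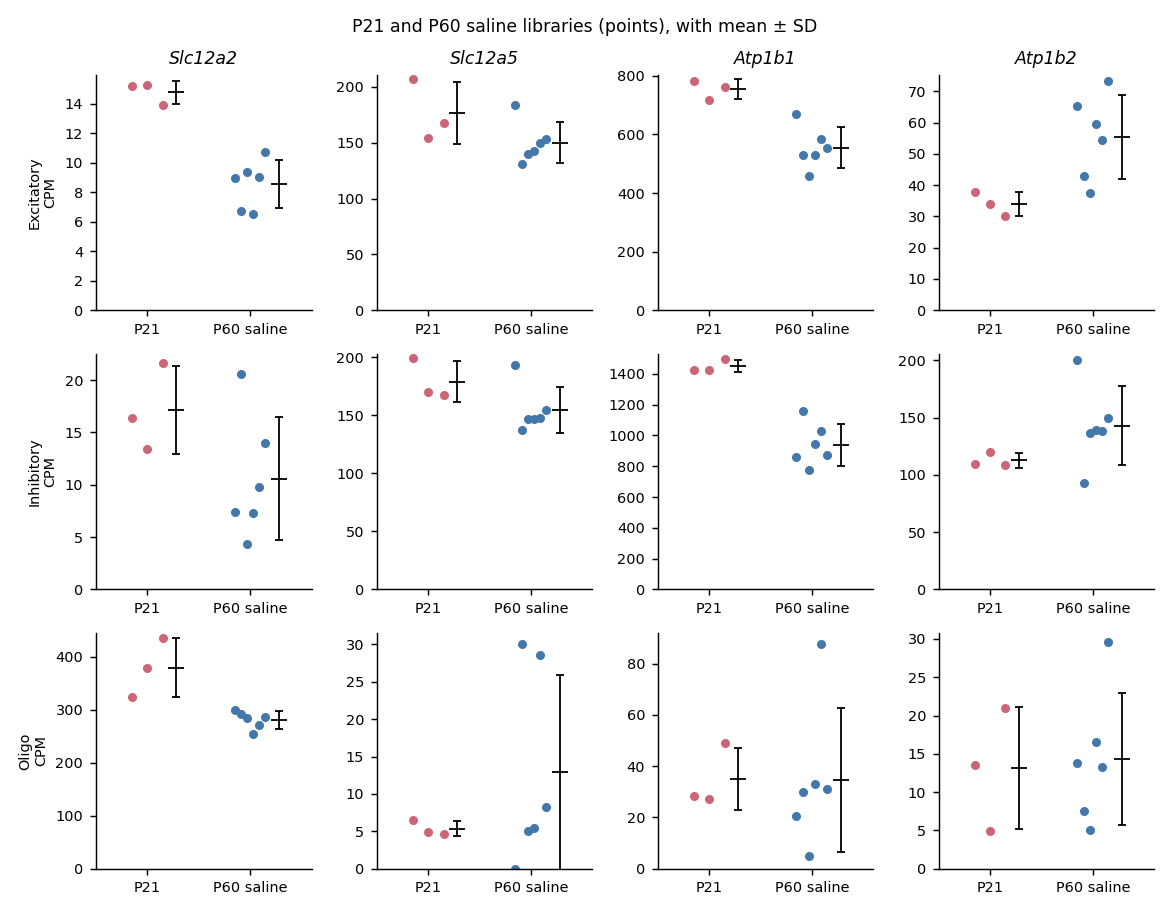
Level in CPM (vertical axis) of the 4 genes (columns) in excitatory neurons, inhibitory neurons and oligodendrocytes (rows), with 1 point per library for the 3 P21 and the 6 P60 saline libraries and the mean ± SD. Atp1b1 separates the ages in both neuron classes, Atp1b2 lies higher at P60 in excitatory neurons except in 1 library, and Slc12a2 separates the ages in excitatory neurons and oligodendrocytes.

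The same test was run in 29 neuron clusters, 26 excitatory and 3 inhibitory, that held enough cells at both ages. In excitatory clusters 32 of 77 member tests were called, 26 lower and 6 higher at P60, and in inhibitory clusters 0 of 9. The background over all genes was 8.12% lower and 6.72% higher calls in excitatory and 1.46% lower and 0.295% higher calls in inhibitory clusters. The genes of this background were not matched to the members' counts. All clusters come from the same libraries, so their calls and signs do not add up as separate evidence.

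Atp1b1 was the broadest. It was lower at P60 in 16 of 26 excitatory clusters by the test, and its log2 change was negative in 27 of all 29 clusters with a median of -0.42. The largest was in Exc_1, from 1084.7 ± 161.2 CPM (SD) at P21 to 600.6 ± 95.2 at P60 (log2 change -0.83, SE 0.15, adjusted p = 2.3e-04). Exc_11 (-0.68, adjusted p = 0.0122) and Exc_24 (-0.65, adjusted p = 2.05e-04, 920.4 to 560.1 CPM) followed. Without P21 library 3 the count was 9, and Exc_11 lost its call without P21 library 1 or 3.

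Slc12a5, which was not called in the class as a whole, was lower at P60 in 8 of 26 excitatory clusters, and negative in 27 of 29. Exc_24 went from 211.5 ± 16.4 to 105.9 ± 17.3 CPM (log2 change -0.89, SE 0.16, adjusted p = 1.33e-04), Exc_10 from 293.7 to 180.8 CPM (-0.67) and Exc_1 from 314.4 to 200.6 CPM (-0.65). In the other 5 of these clusters the log2 change was between -0.57 and -0.54. All 8 cluster calls for KCC2 mRNA were lower at P60. Without P21 library 1 the count was 4, and Exc_1 and Exc_10 were among those lost, Exc_1 also with DESeq2, while Exc_24 was called with each library left out.

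Atp1b2 was higher at P60 in 6 of 21 excitatory clusters tested, and its changes were uneven. Exc_9 went from 16.5 ± 7.19 to 60.1 ± 13.2 CPM (log2 change 1.74, SE 0.25, adjusted p = 2.6e-05), Exc_2 from 6.15 to 23.0 CPM (1.71, SE 0.48, adjusted p = 0.0157), Exc_3 from 13.6 to 44.6 CPM (1.63) and Exc_1 from 17.8 ± 6.06 to 54.2 ± 13.6 CPM (1.51). Exc_14 (0.93) and Exc_24 (0.73) rose by less. The call in Exc_2 was lost without saline library 2, 3, 7 or 11, without P21 library 3 and with at least 30 cells per library, that in Exc_14 without saline library 11, without P21 library 3 and with DESeq2, and that in Exc_24 without P21 library 1 and with DESeq2, while Exc_1, Exc_3 and Exc_9 were called with each library left out. Exc_10, with the highest level at P21, read 103.5 and 100.3 CPM, and was not called (log2 change -0.12).

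The change was set against the cluster's P21 makeup. After the values were seen, the clusters were split by their P21 CPM. In the 5 clusters with at least 100 CPM of Cux2 and under 30 CPM of Rorb, Atp1b2 started from 6.15 to 17.8 CPM, had log2 changes of 1.34 to 1.74 and was called higher in 4. In the 12 clusters with at least 30 CPM of Rorb it started from 34.9 to 103.5 CPM, had log2 changes of -0.24 to 0.73 with a median of 0.12 and was called in 1. The other 9 clusters also started low, at 6.64 to 21.01 CPM of Atp1b2 and 1.12 to 19.2 CPM of Rorb, but the 4 tested had log2 changes of -0.46 to 0.93, with 1 called, so a low start did not go with a large change in all of them. Rorb and Atp1b2 went together over the clusters at P21, so the split is not apart from the starting level. The rest of these 9 clusters did not pass the filter on counts, and their change is not known. No test was made of the split.

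Slc12a2 reached testable counts in 4 clusters and was lower at P60 in 2. In Exc_19 it went from 21.9 ± 2.78 to 9.80 ± 3.99 CPM (log2 change -1.11, SE 0.29, adjusted p = 0.00709) and in Exc_25 from 19.2 ± 3.71 to 7.77 ± 3.72 CPM (-1.08, adjusted p = 0.0038).

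**Figure D4:**
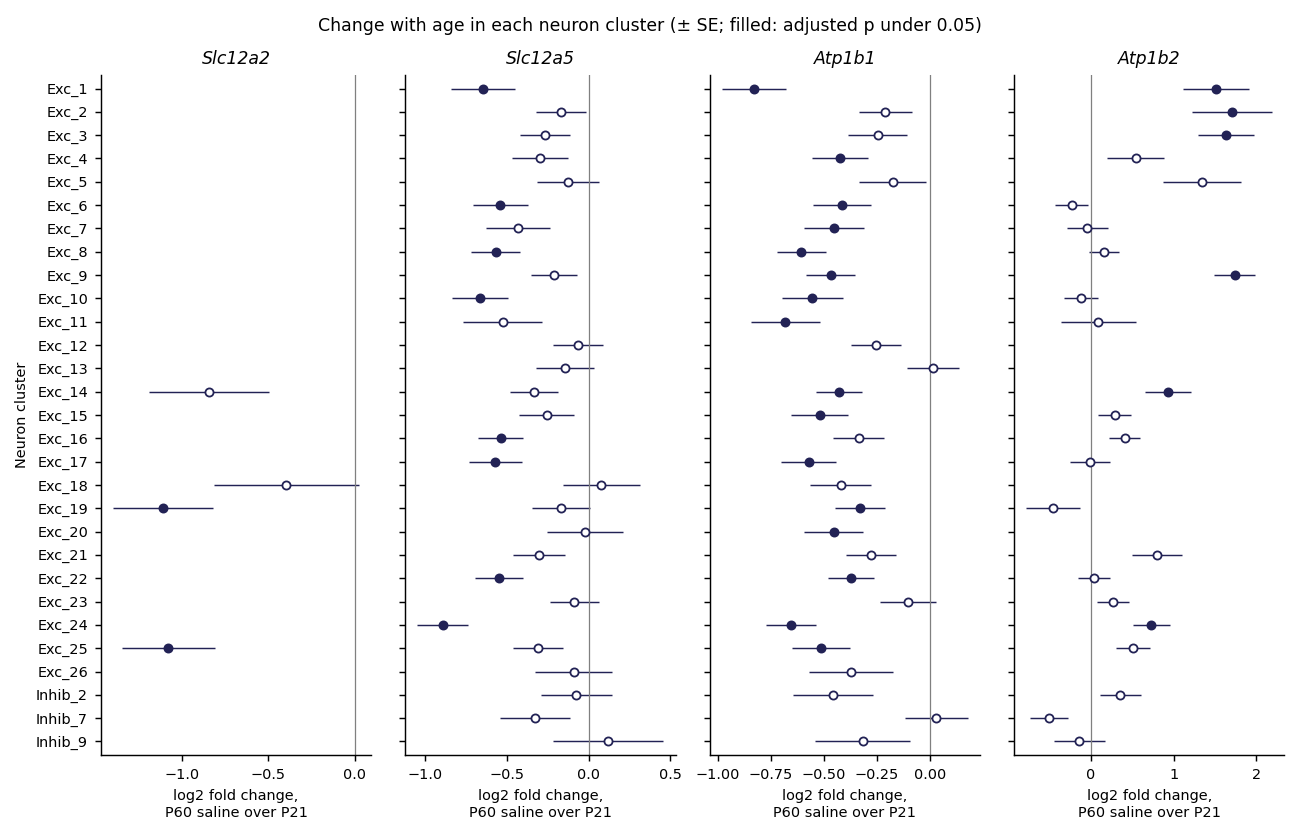
Log2 change from P21 to P60 saline libraries (horizontal axis, ± SE) of each gene in each neuron cluster in which it was tested, filled where the adjusted p was under 0.05. Atp1b1 and Slc12a5 lie mostly below 0, with 16 and 8 calls, and Atp1b2 is above 1.3 in 5 excitatory clusters and between -0.46 and 0.93 in the other excitatory clusters tested.

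The other genes of the same machinery were counted by list, to be read against calls for 40.4% of all genes in excitatory neurons, 19% in inhibitory neurons, 20.3% in oligodendrocytes and 16.5% in endo. Of the remaining chloride cotransporter family (7 genes), 3 were tested in excitatory neurons, with Slc12a9 called higher at P60 (log2 change 0.52, adjusted p = 0.001455) and Slc12a4, the potassium-chloride cotransporter KCC1, called lower (-1.16, adjusted p = 0.0179), while in endo Slc12a4 was called higher (0.73, adjusted p = 0.00878) as 1 of 4 tested. Markers of other cells were also called lower at P60 in excitatory neurons, among them Flt1 (-2.25) and Cldn5 (-3.23) of endothelium, Csf1r (-2.09) of microglia and Pdgfra (-1.90) of OPC, and their part in the Slc12a4 call there was not tested. In endo the mural markers summed to 3913.4 to 4798.5 CPM at P21 and 5014.1 to 7297.8 CPM in P60 saline libraries. Their part in the Slc12a4 call in endo was not tested either. The kinases that phosphorylate the cotransporters and their partners (8 genes) gave 1 higher and 1 lower call of 6 in excitatory neurons. Cab39l, a partner of the kinases, was higher (0.43, adjusted p = 0.00154), as it was in oligodendrocytes (1.04, adjusted p = 0.00902), and Oxsr1, which phosphorylates them directly, was lower (-0.49, adjusted p = 0.0163). None of 6 kinase genes was called in inhibitory neurons. None of the 2 cotransporters tested in them was either.

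Among the other subunits of the pump and its regulators (17 genes), 3 were called higher and 2 lower of 12 tested in excitatory neurons and 1 higher of 11 in inhibitory neurons. The first count is near the share over all genes, and the second is too small to be told from it. In endo, Fxyd1, phospholemman, was called higher at P60 (log2 change 1.63, adjusted p = 6.0e-05), as was Fxyd5 (1.02, adjusted p = 3.14e-04). The summed mural markers also lay higher in endo at P60, as given above, and their part in these calls was not tested. Of the chloride channels and chloride-bicarbonate exchangers (16 genes), 1 was called higher and 2 lower of 14 in excitatory neurons, 2 lower of 11 in inhibitory neurons, 2 higher and 2 lower of 11 in endo and 1 lower of 4 in oligodendrocytes. Lrrc8a, the required subunit of the volume-regulated anion channel, was lower in inhibitory neurons (-1.19, adjusted p = 5.95e-04), as was Clcn5, a chloride-proton exchanger (-1.13, adjusted p = 0.00311), and Clcn4-2 was lower in endo (-0.75, adjusted p = 8.82e-04). No gene of any of the 4 lists was called in astrocytes, NF oligo or microglia.

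The study set cocaine against saline at maintenance, at 48 h and at 15 days of withdrawal. None of 75 member tests in classes was called at any period, where 0.0115%, 0.00826% and 0.344% of all gene tests were. None of 197 tests in neuron clusters was called either, with 0.00647%, 0.00692% and 1.24% over all genes, and the cocaine effect differed between periods in 0 of 19 tests (0.0138% over all genes). DESeq2 made no call in classes. Each arm holds 2 libraries, and a change within the errors given here was not detectable.

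Excitatory neurons have the most UMIs. There Slc12a5 read 174.0 and 155.1 CPM under cocaine against 183.8 and 131.0 under saline at maintenance, 150.9 and 148.7 against 139.8 and 142.9 at 48 h, and 152.6 and 133.9 against 149.9 and 153.5 at 15 days. Atp1b1 read 648.9 and 588.3 against 669.9 and 528.7, then 509.5 and 543.6 against 459.2 and 530.6, then 593.3 and 541.9 against 584.7 and 552.4 CPM. The arms overlapped in each of these comparisons except for Slc12a5 at 48 h, and the log2 changes were 0.05, 0.06 and -0.04 for Slc12a5 and 0.03, 0.07 and 0.04 for Atp1b1, with SEs of 0.11 to 0.12 on the log2 scale. Atp1b2 had log2 changes of -0.05, 0.14 and 0.13, and Slc12a2, at low counts, of 0.16, 0.36 and -0.24.

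In the classes where the other 2 genes are highest, Slc12a2 in oligodendrocytes read 290.0 and 297.4 CPM under cocaine against 299.1 and 292.7 under saline at maintenance, 257.0 and 198.5 against 283.7 and 253.6 at 48 h, and 314.8 and 239.7 against 270.4 and 285.5 at 15 days (log2 changes 0.02, -0.25 and -0.01). Atp1b2 in astrocytes read 771.6 and 815.1 against 948.9 and 760.3 CPM at 48 h (log2 change -0.11) and 690.3 and 583.1 against 570.2 and 741.3 CPM at 15 days (-0.03). At maintenance saline library 3 held 8 astrocytes and that period was not tested. The arms overlapped at each of these.

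Unadjusted, a p under 0.05 was found in 3 of the 75 class tests and 2 of the 197 cluster tests, and none of these passed the adjustment. Over all genes the same limit was met by 552 of 10060 in endo at 48 h, and in microglia by 178 of 5212 at maintenance and 214 of 5212 at 15 days. Atp1b1 in endo at 48 h had a log2 change of 1.12 (SE 0.30, unadjusted p = 0.000919, adjusted p = 0.514 by edgeR). Slc12a2 in microglia was higher under cocaine at maintenance (45.6 and 48.2 against 30.3 and 15.5 CPM) and at 15 days (45.8 and 76.8 against 18.4 and 19.9 CPM), without overlap, with log2 changes of 0.95 (SE 0.46) and 1.56 (SE 0.58, edgeR adjusted p = 1.00). At 48 h the microglia read 30.6 and 51.8 against 47.5 and 19.8 CPM. The microglia values rest on 43 UMIs under cocaine and 19 under saline at maintenance, and on 21 and 10 at 15 days. NF oligo was not among the tests under the limit. There Slc12a2 lay lower under cocaine at 48 h and at 15 days, also without overlap. It read 40.1 and 53.4 against 73.3 and 305.9 CPM at 48 h, and 55.9 and 76.2 against 107.0 and 247.55 CPM at 15 days. These rest on 12 UMIs under cocaine and 27 under saline at 48 h, and on 34 and 103 at 15 days. At maintenance it read 17.4 and 144.3 CPM under cocaine and 127.8 in the 1 saline library with enough cells. The share of all genes without overlap was not computed for microglia or NF oligo. The cluster tests under the limit were Atp1b2 in Exc_4 and Slc12a5 in Exc_10, both at 48 h (edgeR unadjusted p = 0.0421 and 0.0428). In the related lists the 1 call of 514 tests in classes over the 3 periods was Fxyd5 in inhibitory neurons at 15 days (log2 change -2.15, SE 0.50, edgeR adjusted p = 0.0287), where 54 genes were called higher and 19 lower of 8690.

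**Figure D5:**
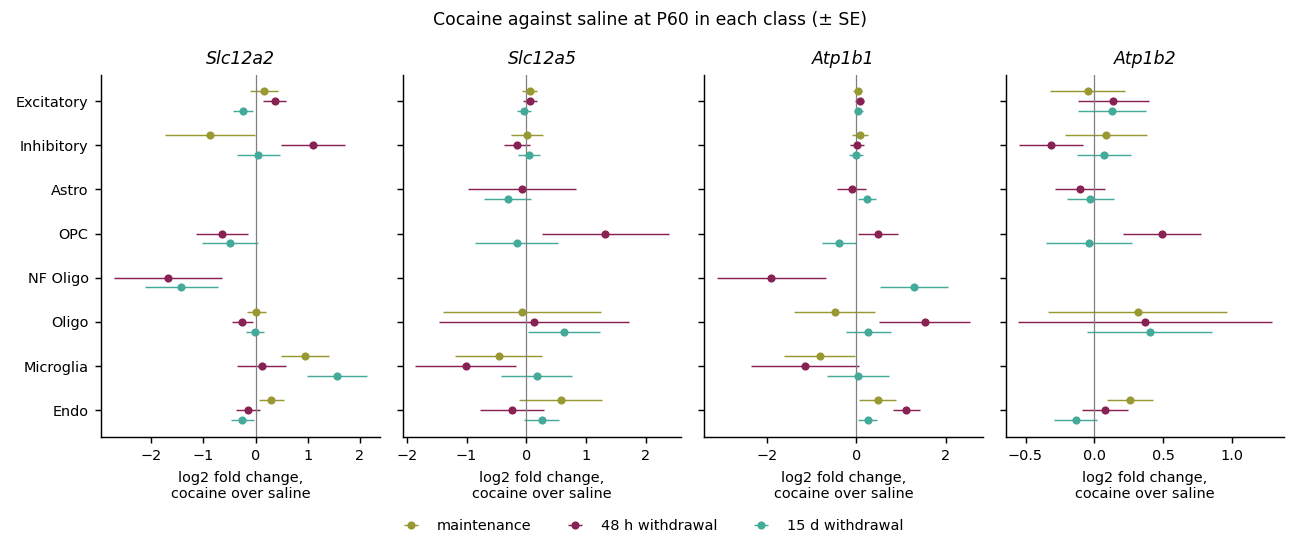
Log2 change with cocaine against saline (horizontal axis, ± SE) of each gene in each cell class (vertical axis), with a colour for each of the 3 periods, from fits over all P60 libraries. No change passed an adjusted p of 0.05, and the excitatory neuron values for Slc12a5 and Atp1b1 lie between -0.04 and 0.07.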

How the data were processed

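The authors dissociated PFC tissue, made droplet 3′ libraries and aligned the reads with Cell Ranger to mm9, and they deposited one matrix of UMI counts per gene and cell for each library, with no normalization. Per the study's methods they removed cells with few genes, with over 10% mitochondrial RNA or judged to be doublets, clustered with Seurat 2.1.0, and deposited a table of cells with the cluster, the cell type and the mitochondrial fraction of each. No further doublet caller was run here. The counts were used as deposited; the mitochondrial fraction was not used in a result.

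The class of a cell was the prefix of its cluster name, and the deposited cell type column served as an alternative (the plan words this choice the other way round for the levels). UMIs were summed per library and class or cluster, sums of fewer than 10 cells were left out, and 13 mitochondrial and 139 ribosomal protein genes were dropped, which left 25993 of 26145 genes for the totals. edgeR 4.0.16 (R 4.3.3) was used with filterByExpr, TMM and the robust quasi-likelihood F test, adjusted by the Benjamini-Hochberg method over all genes of a class or cluster, and a call is an adjusted p under 0.05. Age was tested between 3 P21 and 6 P60 saline libraries, cocaine within each period in 1 fit over the 12 P60 libraries, and the age effect between classes with the library as a block. The SE of a log2 change is its size over the square root of F. p-values measure the spread between libraries. The age test was checked on simulated data for excitatory and inhibitory neurons, oligodendrocytes and astrocytes. The cluster tests, the cocaine tests and the test between classes were not. The members and gene lists were chosen with earlier results of these data known. Related genes named are at most 3 called per list, by smallest adjusted p, and the genes most like a member are the 3 of highest r. The counts over the sodium pump list in endo and oligodendrocytes are not reported here. The alternatives were DESeq2 1.42.0, its size factors, no filter on low counts, a 1.5-fold limit, 30 cells, all genes in the totals, other sets of P60 libraries, the other cell type column and each library left out; levels were also taken as the mean over cells. Precision is limited by UMIs and cells per library: P60 libraries held as few as 8 astrocytes, 3 OPC and no NF oligo (saline library 3), and P21 OPC were too few to test.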

Additional observations from a re-analysis of the deposited data

Results flagged for a closer look

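In 32 groups of 5 or 6 P60 saline libraries, the gap of the highest or lowest library to its nearest neighbour was set against the range; chance flags about 1 group in 20. Among the saline libraries, library 11, of 15 days of withdrawal, stood apart for the neuronal members in non-neuronal classes. Atp1b1 was at 373.6 CPM in its OPC (81 UMIs in 45 cells), with the nearest library at 124.4 CPM. It was at 87.8 CPM in the oligodendrocytes of that library (86 UMIs in 212 cells), with the nearest at 33.1 CPM. Slc12a5 was at 101.5 CPM in its OPC (22 UMIs), with the nearest at 26.9, and at 69.1 CPM in its microglia (15 UMIs in 54 cells), with the nearest at 29.9 CPM. The neuron markers Snap25, Syt1 and Rbfox3 were also highest in that library, summing to 2204.4 CPM in OPC, 783.8 in oligodendrocytes and 1979.5 in microglia, with the next saline library, 12, at 965.1, 407.0 and 1111.2 CPM; their part in these values was not tested. The cocaine libraries of 15 days were not part of this check. In them Atp1b1 was at 159.8 and 200.0 CPM in OPC and at 68.5 and 84.6 in oligodendrocytes. Slc12a5 was at 11.4 and 82.0 CPM in their OPC and at 53.8 and 54.2 in their microglia. In endo, Atp1b1 was at 65.3 to 84.4 CPM in the libraries of 15 days, both arms, against 8.00 to 49.1 CPM in the other P60 libraries. Slc12a5 in the inhibitory neurons of saline library 2 was at 192.9 CPM (26 UMIs in 19 cells), with the nearest at 154.8 CPM. The age effect on Atp1b2 differed between neuron classes, with the change in inhibitory minus that in excitatory neurons at -0.49 on the log2 scale.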

How the results depend on the processing

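No paired analysis was possible because library numbers run separately over the adult and the P21 libraries, no library holds both groups of a comparison, and no number marks a shared animal or day. The 5 calls with age in classes became 3 with a 1.5-fold limit, which takes away Atp1b1 in excitatory neurons and Slc12a2 in oligodendrocytes. The maintenance saline libraries alone gave 3, without Atp1b1 in excitatory and inhibitory neurons and Slc12a2 in oligodendrocytes and with Atp1b1 in endo added. Those of 48 h alone gave 3, without Atp1b2 in excitatory neurons and Slc12a2 in oligodendrocytes. Those of 15 days alone gave 6, without Slc12a2 in oligodendrocytes and with Atp1b1 and Slc12a5 in endo added. Atp1b1 in endo lay below P21 at maintenance and above it at 15 days. It read 8.00 and 17.1 CPM at maintenance, 29.4 to 40.9 at P21 and 65.3 and 76.3 at 15 days. The summed neuron markers in endo were at 54.8 and 55.0, 128.1 to 188.9, and 622.8 and 445.7 CPM in the same order, and their part was not tested. With the authors' cell type column, chosen after seeing the data, 11 were called, and the cause was not tested. In all, 18 of 22 alternatives, that of 15 days among them, stayed within 1.5 times, and leaving out each library gave 4 to 5 calls. With single periods, Slc12a2 in oligodendrocytes had adjusted p of 0.224 (maintenance), 0.0971 (48 h) and 0.0607 (15 days). The 32 cluster calls became 15 with the 1.5-fold limit (4 of 16 for Atp1b1 and 3 of 8 for Slc12a5 stayed) and 26 with DESeq2, all among the 32, and ranged from 22 to 34 with each library left out. The 1 call for a difference between classes became 2 with all 12 P60 libraries, and 0 to 2 with each library left out (0 without P21 library 2 or 3, 2 without saline library 2 or 3). The 0 cocaine calls in classes became 1 without the filter on low counts, Slc12a2 in NF oligo, and stayed at 0 with each library left out, where a lone library is assumed to vary like the other groups. The direction turned for Atp1b2 in astrocytes with age, to 0.55 with the cell type column and 0.19 without P21 library 1, neither called, and the log2 change ranged from -0.34 to 0.19 with each library left out. Atp1b2 in endo was called with that column (log2 change 0.38, adjusted p = 0.0220), and its P60 level was 120.7 CPM with mitochondrial and ribosomal genes kept. In endo by the cluster name the mural markers lay higher at P60 than at P21, and their part in this call was not tested. The cause of these shifts was not tested. Low counts limit Slc12a2 in neurons and all members in OPC and NF oligo.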
